A study of Mus musculus with 6 samples.

Results

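Adrenomedullin is described here together with the genes of its receptor, namely Adm (the peptide's precursor), Calcrl (the calcitonin receptor-like receptor) and the receptor activity-modifying proteins Ramp1, Ramp2 and Ramp3. The members were all probe sets whose annotation gives exactly 1 of these 5 symbols, which came to 5 of 18193 annotated genes and to 10 of the 45101 probe sets of the table: 2 for Adm, 3 for Calcrl, 3 for Ramp1, 1 for Ramp2 and 1 for Ramp3. A probe set is a group of short probes against 1 stretch of transcript. RNA was taken from dissected node and primitive streak, the tissue at the posterior midline where mesoderm forms, of 3 pools of Wnt3a null embryos and 3 pools of Wnt3a wild type embryos. Both genotypes were on a mixed C57BL/6 and 129/Sv background and were taken at E7.75 to E8 with 0 to 2 somites. Each array carried RNA of 3 embryos that was amplified embryo by embryo before pooling, and neither the construction of the null allele nor how the pools of a replicate number are related is given in the sources used here. The rule itself uses symbols and no values, but the family was picked from results of the null against wild-type contrast, so the differences of its probe sets between genotypes are given as a description with no test.

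Adrenomedullin is a secreted, amidated peptide that acts on blood vessel and lymphatic endothelium. Calcrl is a G protein-coupled receptor that needs a partner to reach the cell surface and to select its ligand: with Ramp2 or Ramp3 it binds adrenomedullin, and with Ramp1 it binds calcitonin gene-related peptide. The receptor raises cyclic AMP through the stimulatory G protein. In mice, embryos that lack Adm, Calcrl or Ramp2 die in midgestation with oedema and vessel defects, and Adm is a known target gene of the hypoxia-inducible factors.

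The promoter of Adm is shown because Adm is the member whose groups did not overlap and because both Wnt-responsive and hypoxia-responsive genes are known by short promoter motifs. The sequence, from RefSeq on build GRCm38.p6, plus strand, chr7:110627407-110627656, holds the 250 bases before the annotated gene start. Capitals mark every match to the motifs named below.

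Adm: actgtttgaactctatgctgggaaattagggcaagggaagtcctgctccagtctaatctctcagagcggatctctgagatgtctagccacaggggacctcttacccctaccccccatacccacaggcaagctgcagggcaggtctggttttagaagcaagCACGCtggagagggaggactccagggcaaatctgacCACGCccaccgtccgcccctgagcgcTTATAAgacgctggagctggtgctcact

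The window holds 2 matches to the core of the hypoxia response element (searched as ACGTG or GCGTG on both strands), which begin 90 and 54 bases before the start and read CACGC on this strand. It has 0 matches to the core of the TCF/LEF site through which Wnt signalling acts on DNA (CTTTGA or CTTTGT, both strands). A TATA box core (TATAA, both strands) is matched at 28 and 27 bases before the start, by overlapping letters on opposite strands. Over 32817 windows of this kind, 38.6% hold the hypoxia response core, 27.6% the TCF/LEF core and 22.8% the TATA core. Promoter windows were matched for 4 of the 5 genes, and the hypoxia response core had 2 matches in that of Ramp3 and 0 in those of Calcrl and Ramp1, while the TCF/LEF core had 1 match in Ramp1 and 0 in Calcrl and Ramp3. These matches describe letters and were not tied to binding.

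Signals are linear, scaled units, and the median probe set had a signal of 71.5. Of the 10 member probe sets 5 lay at or above that level: both of Adm, 1 of Calcrl, that of Ramp2 and that of Ramp3, the last only through null pool 1. Median signals per array ran from 77.8 to 86.4 in null pools and from 73.7 to 81.2 in wild-type pools. The 3' to 5' signal ratio of Gapdh, which rises as RNA is degraded, was 2.09 to 2.39 in null pools and 2.51 to 3.00 in wild-type pools, without overlap, whereas the ratio for beta-actin was 2.38 to 3.83 in null and 2.68 to 3.69 in wild type, with overlap. Wild-type pool 1 had a signal of 4.31 for the Y-linked gene Eif2s3y, against 1053 to 1788 on the other arrays, and so differed in sex composition. The probe set of Wnt3a gave 961, 761 and 1009 in null pools and 864, 1058 and 996 in wild-type pools. Which part of the gene the allele alters is not given here, so the genotype labels are not checked by it. Primitive streak markers (8 of 8 measured) were Fgf8, Evx1, Mixl1, Fgf4, Wnt3a, Tbx6, Nkx1-2 and Cdx2. They had lower mean values in null for 8 of 8 genes. Wnt3a, the gene of the null allele, is thus 1 of the 8, with a log2 difference of -0.10 and overlapping groups. The summed signal of the 8 markers was 17096 to 22658 in null pools and 22947 to 28446 in wild-type pools. Nkx1-2 made up most of the sum on every array, and its own groups overlapped, at 11376 to 16391 in null and 14974 to 17845 in wild type. Every null array was below every wild-type array for 4 of the 8 genes, against 4.47% of all genes at or above the median signal. Node and notochord markers were measured for 6 of 7 genes. Their sums overlapped, at 1027 to 2661 in the null group and 929 to 2557 in the wild-type group, with Foxj1 and Nog below the median signal. The largest differences of these lists above that level were of Mixl1, a streak gene, at 620, 406 and 436 in the null pools against 901, 2106 and 633 in the wild-type pools, and of Cer1, a secreted antagonist made in endoderm, at 1163, 265 and 748 in null pools against 215, 156 and 462 in wild-type pools.

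Adm transcripts had higher signals in the pools labelled Wnt3a null. On probe set 1447839_x_at the signals were 6971, 4620 and 6989 in null pools 1 to 3, against 3416, 669 and 3513 in wild-type pools 1 to 3. The lowest null pool was above the highest wild-type pool, and wild-type pool 2 stood well below the other two. On probe set 1416077_at the signals were 1813, 753 and 1024 in the null pools, against 346, 133 and 520 in the wild-type pools. Here too the groups did not overlap, and wild-type pool 2 was again the lowest. The suffix x_at marks probes that may also match other transcripts, and this probe set has no accession in the annotation used, whereas 1416077_at carries no such mark.

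The mean log2 difference, null minus wild type, was 1.60 ± 0.71 (SE, n = 3 each) for 1447839_x_at, a 3.04-fold higher signal, and 1.95 ± 0.61 (SE, n = 3 each) for 1416077_at, 3.88-fold higher. Within replicate numbers 1, 2 and 3 the log2 differences were 1.03, 2.79 and 0.99 on 1447839_x_at, and 2.39, 2.50 and 0.98 on 1416077_at. Replicate number 2 gave the largest difference on both probe sets. The log2 signals of the 2 probe sets had a Pearson correlation of 0.94 and a Spearman correlation of 0.94 over the 6 arrays, a description only, since both read the same RNA. Wild-type pool 2 carries much of the size on 1447839_x_at: without it the log2 difference was 0.81 ± 0.30 (SE, n = 3 null and n = 2 wild type), and on 1416077_at it was 1.40 ± 0.48. Among the 22519 probe sets at or above the median signal, 0.204% had a difference in this direction at least as large as 1447839_x_at. For 1416077_at the share was 0.0666%, and both counts include the Adm probe sets. Nothing is read from these shares, since the family was picked with this contrast in view. In pooled tissue, fewer cells of a type and less RNA per cell cannot be told apart.

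**Figure D1:**
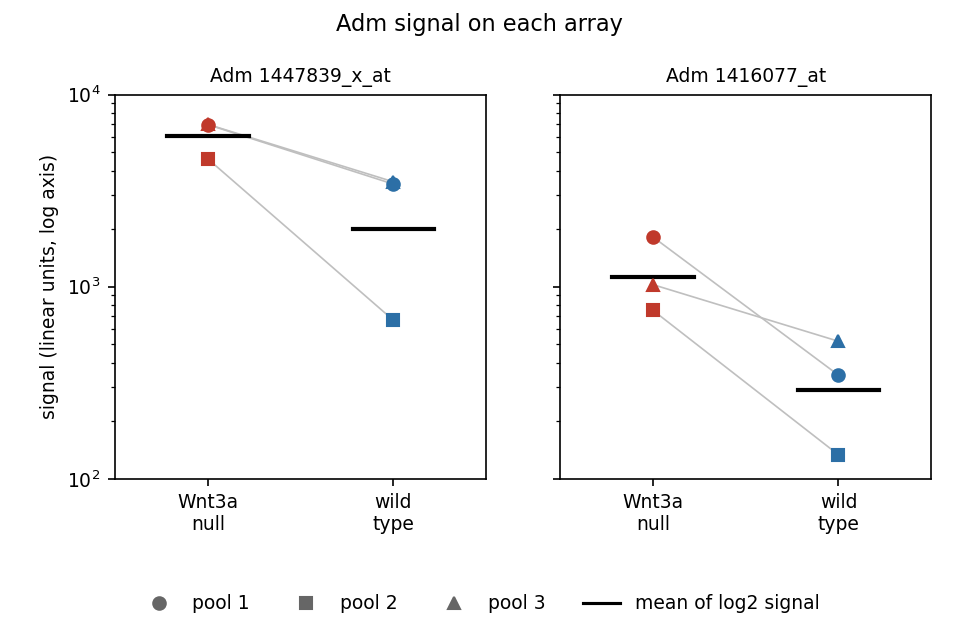
Signal of the 2 Adm probe sets on each array, on a log axis, with Wnt3a null pools left of wild-type pools. Marker shapes give the pool number, grey lines join pools of the same number and black bars are means of the log2 signal. All 3 null pools lie above all 3 wild-type pools on both probe sets, and wild-type pool 2 is lowest on both, at 669 on 1447839_x_at and 133 on 1416077_at.

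Of the 10 member probe sets, 2 had every null array above every wild-type array, both of them of Adm, and 0 had every null array below. Over all 45037 probe sets without controls these shares were 5.57% and 4.41%. The fit over all probe sets (limma, Benjamini-Hochberg adjustment, threshold 0.05) called 0 of the 10, with a background of 0% lower and 0% higher, and an unadjusted p under 0.05 was reached by 2.2% in the lower and 2.84% in the higher direction. The fit with replicate number as a block and trend and robust options also called 0 of the 10, with a background of 0.0311% lower and 0.0178% higher. Both Adm probe sets, and no other member, were higher in null in all 3 pairs, as were 15% of all probe sets, and 0 members were lower in all 3, as were 13.7% of all probe sets. Nothing is read from these counts, since this contrast was in view when the family was picked.

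Calcrl, which carries the ligand-binding and signalling function of the receptor, was seen by 1 probe set above the median signal. Probe set 1425814_a_at had 443, 104 and 107 in the null pools, against 64.0, 118 and 192 in the wild-type pools. The groups overlapped, and null pool 1 stood above all other arrays. The log2 difference was 0.59 ± 0.72 (SE, n = 3 each), with a 95% interval from -1.20 to 2.39, and it was -0.10 without null pool 1. The other 2 Calcrl probe sets were dim, at 3.50 to 33.5 in null pools and 4.26 to 21.4 in wild-type pools, with log2 differences of -0.60 for 1418489_a_at and 0.92 for 1459536_at. At such signals log2 values vary widely between replicates, and on a log2(signal + 50) scale the differences were -0.02 and 0.19.

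Ramp2, the partner that makes Calcrl an adrenomedullin receptor in endothelium, was the steadiest member. Its probe set 1418187_at had 551, 326 and 368 in the null pools, against 376, 383 and 305 in the wild-type pools. The groups overlapped, and 5 of the 6 arrays lay between 305 and 383. The log2 difference was 0.20 ± 0.28 (SE, n = 3 each), with a 95% interval from -0.49 to 0.89, and -0.03 without null pool 1. Its SD of log2 signal within a genotype was 0.31, against a median of 0.28 for probe sets at or above the median signal, while those of 1447839_x_at and 1416077_at were 1.00 and 0.85. A further 2 probe sets are annotated to Ramp2 and another gene together and were not used.

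Ramp3, the alternative partner for adrenomedullin, differed more between null pools than between genotypes. Probe set 1420401_a_at had 993, 83.5 and 16.3 in the null pools, against 49.5, 43.3 and 61.3 in the wild-type pools. The null pools spanned both the highest and the lowest array of the set, and the wild-type pools lay close together. The log2 difference was 1.12 ± 1.47 (SE, n = 3 each), with a 95% interval from -2.54 to 4.78, and it turned to -0.46 without null pool 1. The differences within replicate numbers 1, 2 and 3 were 4.33, 0.95 and -1.91.

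Ramp1, which turns Calcrl into a receptor for calcitonin gene-related peptide, was near the floor of the arrays. Probe set 1417481_at, the brightest of its 3, had 93.4, 14.0 and 49.6 in the null pools, against 32.9, 49.4 and 8.43 in the wild-type pools. The groups overlapped, and its log2 difference of 0.75 ± 0.96 (SE, n = 3 each) had a 95% interval from -1.63 to 3.13 and was -0.0038 without wild-type pool 3. The remaining Ramp1 probe sets, 1447474_at and 1431413_at, ran from 5.10 to 45.5 in null pools and from 3.95 to 28.3 in wild-type pools. Their log2 differences were -0.51 and 0.92, or 0.00 and 0.23 on the log2(signal + 50) scale.

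**Figure D2:**
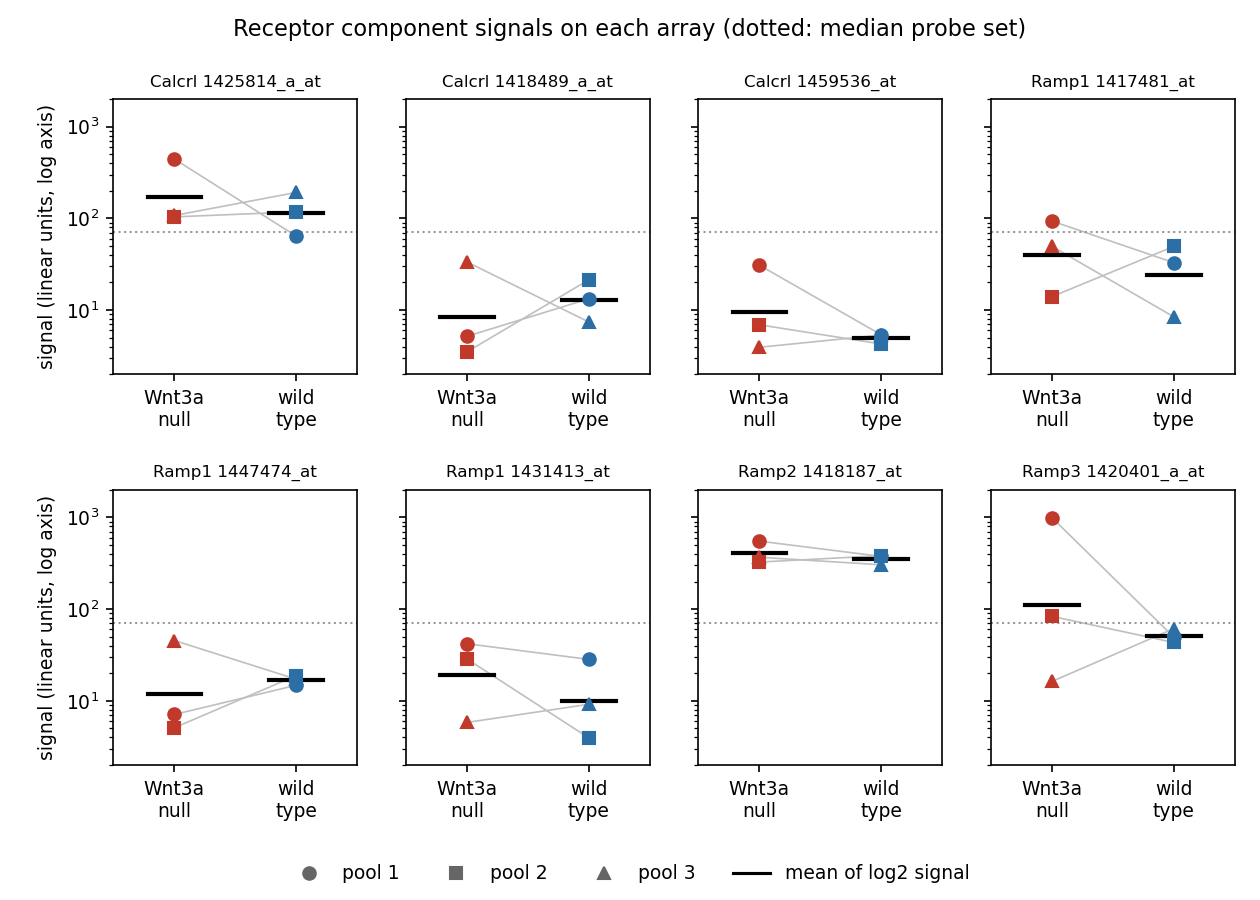
Signal of the 8 probe sets of Calcrl, Ramp1, Ramp2 and Ramp3 on each array, on a log axis, with Wnt3a null pools left of wild-type pools and the median probe set signal of 71.5 dotted. Shapes, grey lines and black bars stand for pool number, same-numbered pools and means of the log2 signal. Ramp2 stays between 305 and 551, Ramp3 has 1 null pool at 993, and the groups overlap in all 8 panels.

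**Figure D3:**
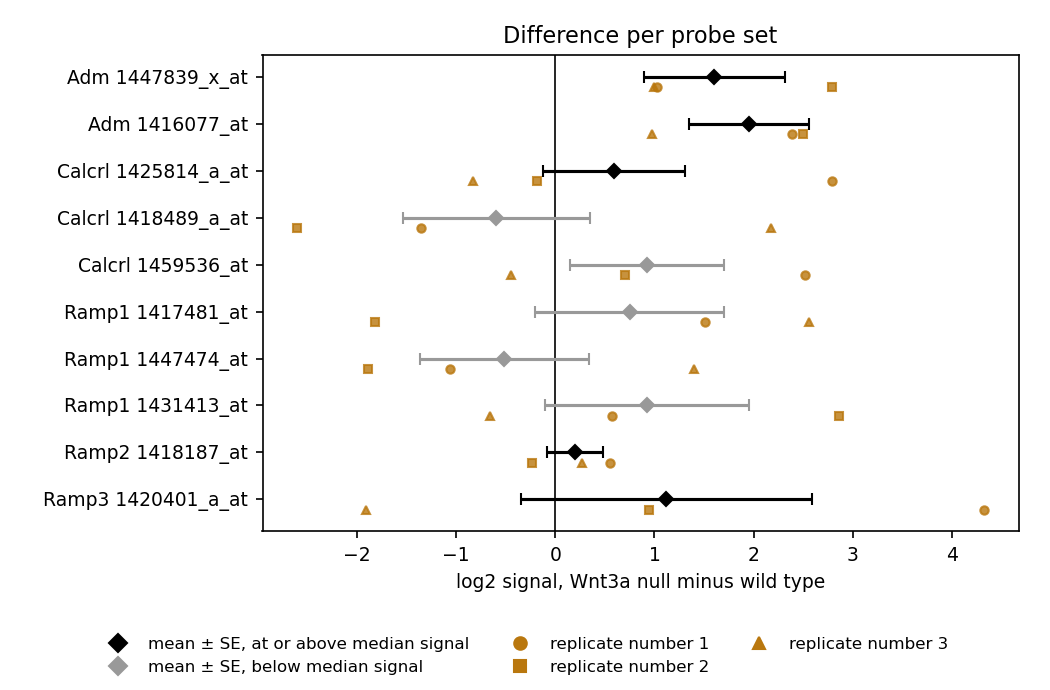
Log2 difference, Wnt3a null minus wild type, of the 10 member probe sets. Diamonds with bars are means ± SE over 3 arrays per genotype, grey where the probe set lies below the median signal, and orange points are the differences within each replicate number. On both Adm probe sets the 3 points are above 0, at 0.98 or more, while on every receptor component probe set they lie on both sides of 0.

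Null pool 1 was the highest array for 7 of the 10 member probe sets, and for 19.5% of all probe sets. The 7 were 1416077_at of Adm, 2 probe sets each of Calcrl and Ramp1, and those of Ramp2 and Ramp3. Across the 6 arrays the log2 signal of Ramp3 had a Pearson correlation of 0.73 with that of Ramp2 and of 0.28 with that of Adm 1447839_x_at, and Calcrl had 0.61 and 0.29. These values share the same 6 arrays and rest largely on null pool 1. Without that pool the log2 difference of Adm was 1.50 on 1447839_x_at and 1.61 on 1416077_at.

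The tissues in which adrenomedullin and its receptor are known to act were followed by fixed marker lists. Endothelial and angioblast markers were measured for 12 of 12 genes, and 0 passed the test in either direction. Their summed signal was 5446 to 6452 in null pools and 5162 to 5993 in wild-type pools, and Tie1, Pecam1, Emcn and Erg lay below the median signal. Of the 12 markers 10 were higher in value in null, with a median log2 difference of 0.48, against 0.00 over all genes. Over the 8 markers at or above the median signal it was 0.32. Sox17, also an endoderm gene and 1 of the 2 lower in value, made up 47.7% to 51.3% of the sum in null, against 56.3% to 66.5% in wild type. Without it, a sum taken after the values were seen, the other 11 markers came to 2798 to 3367 in null, against 1728 to 2616 in wild type, with no overlap. Kdr, a receptor of endothelial progenitors, was likewise named after its values were seen. It had 572, 623 and 663 in the null pools against 355, 527 and 464 in the wild-type pools, also with no overlap. Of the 8 markers at or above the median signal, 1 (Kdr) had every null array above every wild-type array. For 1 (Sox17) every null array was below. Over all genes at that signal these shares were 5.5% and 4.47%. Flt1, the other marker lower in value, had a log2 difference of -0.13, with overlap. The largest difference above the median signal was of Cdh5, the endothelial cadherin, with 266, 102 and 43.0 in null pools and 24.9, 77.2 and 116 in wild-type pools. Null pool 1 was the highest array for 4 of the 12 markers, Cdh5 among them, as it was for Calcrl, Ramp2 and Ramp3, and the part of these cells in the Adm and receptor values was not tested. Lymphatic markers (4 of 4 measured) summed to 1487 to 3020 in null pools and 1345 to 3414 in wild-type pools, with Prox1 and Lyve1 below the median signal and Pdpn making up most of the sum.

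Trophoblast, a tissue outside the embryo that makes much adrenomedullin in the mouse, was covered by 4 measured markers of 8. Their sum was 245 to 325 in null pools and 168 to 393 in wild-type pools, with Ascl2, Tpbpa and Ctsq below the median signal and Hand1, also a mesoderm gene, at 125 to 206 in null pools and 114 to 243 in wild-type pools. Visceral and yolk sac endoderm markers (8 of 8 measured) summed to 41217 to 59073 in null pools and 34871 to 84602 in wild-type pools. All 8 were highest in wild-type pool 2, the pool with the least Adm signal. Afp, the alpha-fetoprotein gene, had the largest difference above the median signal, with 4991, 7155 and 6503 in the null pools against 2935, 10428 and 4434 in the wild-type pools. Heart progenitor and muscle markers (7 of 7) summed to 2576 to 3348 in null pools and 1447 to 1844 in wild-type pools, without overlap. Isl1 and Tbx20 together made up most of the sum on every array. Of the 7 markers 4 were higher in value in null and 3 lower, namely Nkx2-5, Myl4 and Actc1. Nkx2-5, Myl4 and Tnnt2 lay below the median signal. The largest difference above that signal was of Myl7, at 450, 159 and 216 in null pools against 96.1, 163 and 64.6 in wild-type pools. Surface ectoderm and amnion markers (7 of 7) summed to 21956 to 25043 in the null group and 20915 to 22329 in the wild-type group, with overlap. Krt8, Krt18 and Epcam together made up most of that sum on every array. The largest difference above the median signal was of Tfap2c, at 2248, 3581 and 3548 in the null pools against 2159, 1603 and 2532 in the wild-type pools. The part of any of these tissues, of the streak markers and of the Gapdh ratio in the Adm difference was not tested. Of all 56 measured markers, limma called 0 lower and 0 higher, as it did over all probe sets. An unadjusted p under 0.05 was reached by 2 in the lower and 3 in the higher direction, against 2.2% and 2.84% of all probe sets. The fit with block, trend and robust options called 0 lower and 1 higher, against 0.0311% and 0.0178% of all probe sets. The 1 was the heart progenitor gene Tbx20, with a log2 difference of 1.06 (limma, adjusted p = 0.0313).

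Genes that act with adrenomedullin were taken from 5 fixed lists with 55 genes, of which 51 were measured and 46 lay at or above the median signal, each represented by its brightest probe set. None passed the test: limma called 0 lower and 0 higher (smallest adjusted p = 0.974), with a background of 0% of 18193 genes. An unadjusted p under 0.05 was reached by 0 in the lower direction and by 2 in the higher, Mme and Arnt. Over all probe sets 2.2% and 2.84% reached it. The fit with block, trend and robust options called 0 of the listed genes. The median log2 difference over the 51 genes was 0.02, against 0.00 over all genes. Every null array was above every wild-type array for 5 of the 46 genes and below for 3, where the shares over all genes at that signal were 5.5% and 4.47%.

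Among the relatives of the peptide and its receptors, only Crcp, a component reported to help Calcrl signal, lay above the median signal, with 1448, 1277 and 1522 in null pools and 1500, 1231 and 1704 in wild-type pools. The log2 difference of Crcp was -0.05 ± 0.22 (SE, n = 3 each). Adm2, Calcb, Iapp and Calcr lay below the median signal. The list had 5 measured members of 6, with a median log2 difference of 0.05. The list of amidation, degradation and decoy receptor genes had 4 measured members with a median of -0.05. Pam, the enzyme that amidates the peptide, had 292, 194 and 285 in null pools and 379, 180 and 448 in wild-type pools, and the groups overlapped. Ackr3, a decoy receptor that takes up adrenomedullin, had 994, 367 and 716 in null pools against 755, 427 and 1077 in wild-type pools, with overlap as well. Mme, the peptidase neprilysin, which degrades adrenomedullin, had 577, 334 and 359 in the null pools against 262, 249 and 248 in the wild-type pools. Its groups did not overlap and its log2 difference was 0.70 ± 0.28 (SE, n = 3 each, limma, adjusted p = 0.987).

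Receptor desensitisation genes had 4 measured members of 6 listed and a median of 0.01. Arrb1, an arrestin that uncouples receptors, had 892, 790 and 556 in null pools and 492, 612 and 433 in wild-type pools, with 1 null pool inside the wild-type range. Arrb2 and Grk5 had log2 differences of -0.22 and 0.11. For the stimulatory G protein and cyclic AMP pathway, 20 of 20 genes were measured, 9 higher and 11 lower in value, with a median of -0.01. Crem, a cyclic AMP-responsive transcription factor, had 436, 167 and 213 in null pools and 123, 104 and 207 in wild-type pools, so the groups overlapped. Prkar1b, a regulatory subunit of protein kinase A, and Adcy5, an adenylyl cyclase, had log2 differences of 0.84 and -0.82, each with overlapping groups.

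The hypoxia-inducible factors and their targets, to which Adm itself belongs, had 18 of 18 genes measured, 10 higher and 8 lower in value, with a median log2 difference of 0.06. Epas1, the factor HIF-2 alpha that is prominent in endothelium, had 5300, 940 and 1092 in the null pools, against 591, 805 and 669 in the wild-type pools. Its groups did not overlap, and null pool 1 was far above the rest. Ndrg1, a hypoxia-induced gene, had 1684, 467 and 572 in null pools against 426, 324 and 339 in wild-type pools, with the same pool highest. Ankrd37, another hypoxia-induced gene, had 187, 286 and 255 in null pools against 238, 23.5 and 139 in wild-type pools, and its groups overlapped. Its lowest array was wild-type pool 2, as for Adm. Further genes of the list were named after their values were seen. Slc2a1, Pgk1 and Ldha had log2 differences of -0.02, -0.02 and -0.13, and Vegfa and Hk2 of 0.41 and 0.38. Among the 8 genes lower in value the largest differences were of Ddit4, at -0.86, and Egln1, at -0.30. Ddit4 had 1041, 1675 and 878 in null pools against 4521, 2376 and 847 in wild-type pools, with overlap. Of the 18 genes 4 had every null array above every wild-type array (Epas1, Arnt, Ndrg1 and Hk2) and 0 below. The shares over all genes at or above the median signal were 5.5% and 4.47%. The part of hypoxia in the Adm difference was not tested.

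**Figure D4:**
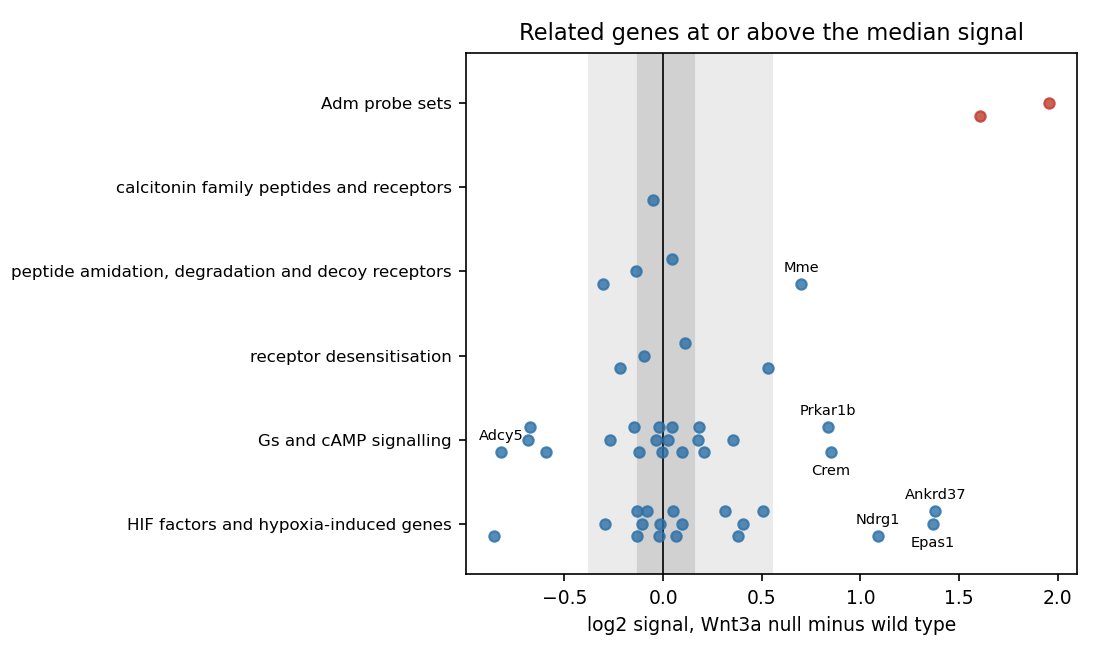
Log2 difference, Wnt3a null minus wild type, of the 2 Adm probe sets (red) and of listed genes at or above the median signal (blue), 1 point per gene. The grey bands hold the central 50% and 90% of all 11153 genes at that signal. The Adm points at 1.60 and 1.95 lie to the right of every listed gene, the nearest being Ankrd37 at 1.38 and Epas1 at 1.37.

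The genes most like Adm over the 6 arrays were sought among 11149 genes at or above the median signal, by the Pearson correlation of log2 signals with 1447839_x_at. The 5 highest were Amotl1 (r = 0.996), Arhgdib (0.995), Sfmbt2 (0.994), Ubqln4 (0.990) and Ktn1 (0.986), with Spearman correlations of 0.94 to 1. These are the top of 11149 comparisons over only 6 arrays. At the looser bound of 0.9, 1.24% of the genes compared had a higher correlation. Amotl1, Ubqln4 and Ktn1 followed the shape of Adm at small amplitude, with log2 differences of 0.18, 0.39 and 0.17. Arhgdib, a gene known from blood cells, had 227, 141 and 180 in the null pools against 100, 24.3 and 105 in the wild-type pools. Sfmbt2, an imprinted Polycomb-group gene needed in mouse trophoblast, had 725, 515 and 758 in null pools against 428, 176 and 450 in wild-type pools. All 5 genes had their lowest array in wild-type pool 2, like Adm, and groups without overlap. Genes picked by a high correlation with Adm tend to share both traits, so nothing is read from them. For Ramp2, the brightest receptor component probe set, the 5 highest were Plaat3 (r = 0.988), Prkg2 (0.987), Ech1 (0.985), Vps33a (0.984) and Pdzd4 (0.984). Prkg2, a cyclic GMP-dependent kinase, had 983, 88.7 and 159 in the null pools against 162, 185 and 95.9 in the wild-type pools, with null pool 1 alone far above the rest, as for Ramp3.

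**Figure D5:**
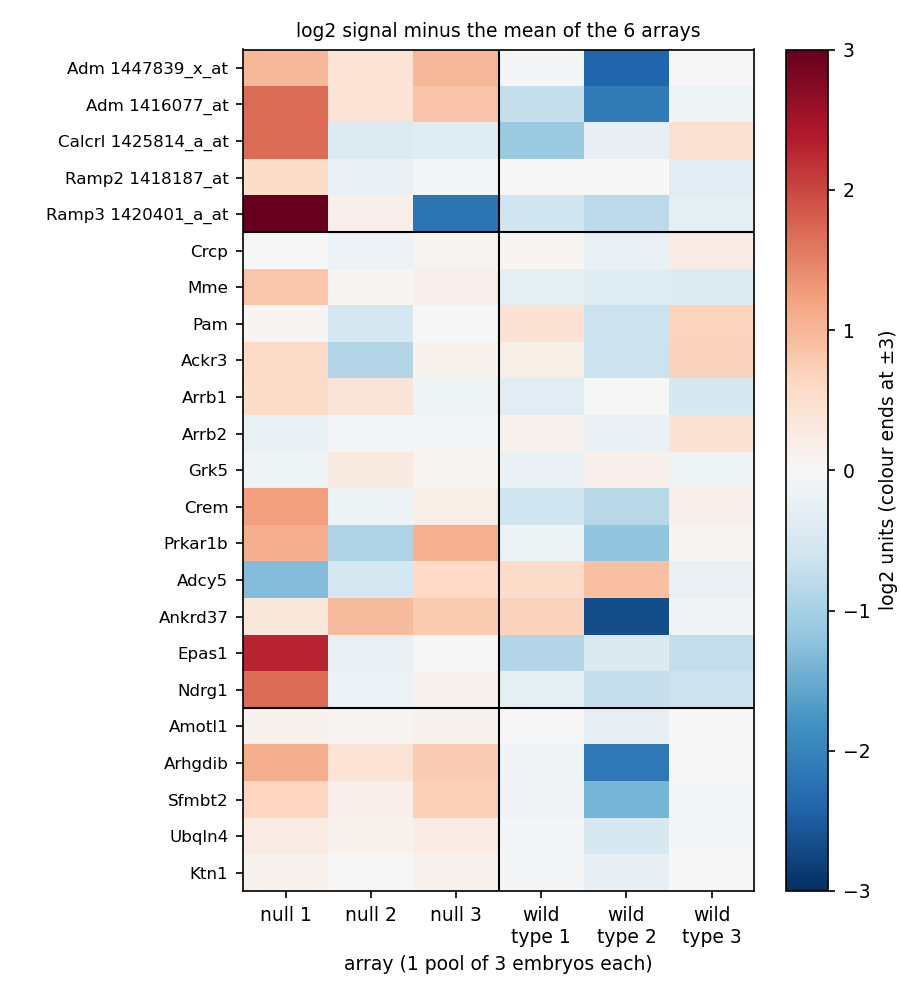
Log2 signal of each probe set minus its mean over the 6 arrays, with Wnt3a null pools left and wild-type pools right. The rows from top to bottom are the 5 members at or above the median signal, the pathway genes named in the text and the 5 genes most like Adm. Null pool 1 is high for Ramp3, Calcrl, Epas1 and Ndrg1, and wild-type pool 2 is low for both Adm probe sets, Ankrd37, Arhgdib and Sfmbt2.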

How the data were processed

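The data are 6 whole-genome mouse Affymetrix arrays, 3 per genotype, grouped by the labels. The deposited intensities are linear signals for 45101 probe sets, scaled so that the trimmed mean (2% off both tails) equals 500 per array. RMA, with no version, is named per the submitters' processing notes, but the deposited intensities are not of that form, and which step made them is not known from the sources. After 64 control probe sets were left out, log2 signals of 45037 were fitted in R 4.3.3 with limma 3.58.1 (lmFit, eBayes, no filter, two-sided, Benjamini-Hochberg, threshold 0.05). Symbols came from the platform annotation: 34945 probe sets had 1 symbol, 932 several and 9160 none listed. Listed genes used their brightest probe set. The number of arrays limits precision, and p-values measure the spread between these pools.

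The members, lists and tests were chosen with earlier results of these data known. Named genes were all members, Wnt3a, up to 3 genes per pathway list and 1 per marker list with the largest difference at or above the median signal, and the 5 genes most correlated with Adm and with the brightest receptor component; marker lists are otherwise given by sums and by the members below the median signal. Others were named after their values were seen.

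Replicate numbers were checked for pairing: deviations from genotype means correlated at 0.422, 0.454 and 0.282 within a number over 18088 probe sets with mean log2 above 7, and at 0.0537, 0.0524 and 0.0338 over all. By the first set and a bound of 0.1 they were taken as pairs, so differences within numbers are given. The main fit has no term for the pairs. All SEs, intervals and p-values come from fits without the pairing, except where the block is named. Alternatives were the block, eBayes options, a signal filter, 1 probe set per gene, log2(signal + 50), quantile normalization, median centring and leaving out each array.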

Additional observations from a re-analysis of the deposited data

How the results depend on the processing

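The Adm log2 difference on 1447839_x_at (1.60) was positive under all 14 alternatives, from 0.81 without wild-type replicate 2 to 2.01 without wild-type replicate 3, and that on 1416077_at (1.95) under all 13 that include it, from 1.40 to 2.38 without the same arrays. With the replicate block the value on 1447839_x_at was the same 1.60, with an SE of 0.49 in place of 0.71. Of the other 8 member probe sets 6 changed sign under at least 1 alternative. Leaving out null replicate 1 gave Calcrl 1425814_a_at -0.10, Ramp2 -0.03 and Ramp3 -0.46, against 0.59, 0.20 and 1.12 with all arrays, and leaving out null replicate 2 gave Calcrl 1418489_a_at 0.04 and Ramp1 1447474_at 0.09, against -0.60 and -0.51. Ramp1 1417481_at was -0.0038 without wild-type replicate 3, against 0.75. Calcrl 1459536_at (0.07 to 1.56) and Ramp1 1431413_at (0.23 to 1.78), both dim, stayed above 0 under 12 alternatives each. No member and no pathway gene was called under any of the 14. The count of called probe sets was 0 lower and 0 higher (limma, 2273 at an unadjusted p under 0.05). It became 14 lower and 8 higher when the replicate block was joined with trend and robust options, and 1 lower and 0 higher with trend and robust alone, and it stayed at 0 with the replicate block alone and in the range of 0 to 0 when each array was left out. The cause was not tested. Signal over background limits Ramp1 and the 2 dim Calcrl probe sets.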
